A study of Mus musculus with 10 samples.

Results

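The Trim5 and Trim30 cluster is a run of 8 genes on mouse chromosome 7, Trim34a, Trim5, Trim12a, Trim12c, Trim30b, Trim30c, Trim30a and Trim30d in order of position. They were picked out of the 46959 gene entries of the count table by name, as neighbouring family members, and were selected on their presence or absence over the 5 groups of the series. Differences of the 8 genes between the groups are therefore given as a description with no test, apart from the SAHA comparison, whose size did not enter the choice. Trim genes encode proteins with a RING domain, B-boxes and a coiled coil, most of which act as ubiquitin ligases. In primates TRIM5 binds the capsid of incoming retroviruses and blocks infection, and mice carry several copies of this gene and of its Trim30 relatives side by side. Many of these genes are induced by interferon, through transcription factors that bind a promoter motif called the interferon-stimulated response element.

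RNA was sequenced from 10 libraries in 5 groups of 2 to study enhancers of the immunoglobulin heavy chain locus and the drug SAHA (vorinostat), an inhibitor of histone deacetylases. The 3 femoral groups, labelled C57BL6 and taken from bone marrow without culture, were RAG2_deficient (pools 2 and 3), 2KO (pools 1 and 3) and deltaEmu (pools 5 and 7). The labels do not spell out 2KO. The series' design text speaks of mice lacking 5′Eµ and the 3′RR, both enhancers of the heavy chain locus, and of mice lacking RAG2, which is needed for V(D)J recombination. Wild-type femoral cells were not analysed here. The 2 spleen groups, labelled as a 129 background and as wild type, held CD43- splenocytes cultured for 48 h with 5 µg/ml lipopolysaccharide and 20 ng/ml interleukin 4 (LPS_IL4), and the same cultures with SAHA (LPS_IL4_SAHA, pools 4_et_7 and 6_et_8 in both). The SAHA dose is 200 nM in the sample descriptions and 200 ng/ml in the protocol, and the growth protocol names KOKI and BLACK-6 control mice as the source of the splenocytes. All animals were 8 to 10 weeks old, and each library came from pooled RNA. The p-values measure only the spread between these pools.

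Total counts were 17710154 to 25544275 per library, so that 3 counts, the limit that a count of 0 allows, stand for 0.118 to 0.174 CPM, the unit of all levels below (read counts scaled to a common library size). Columns were matched to samples by the sequencing index in the descriptions, as the rule for this gene set states. The sample numbers in the titles would give 8 of the 10 columns to other samples and would exchange the SAHA label within the spleen. With the SAHA labels of the titles every SAHA difference below would change its sign, and the levels given next do not check that label. With the index, Rag1 lay at 138 CPM or more in all 6 femoral libraries and at 0.0433 CPM or less in the spleen. Ighm, the heavy chain constant gene of IgM, had 4.26 and 5.79 CPM in 2KO, 449 and 546 CPM in deltaEmu, 478 and 523 CPM in RAG2_deficient and 3390 to 4100 CPM in the spleen. Rag2 itself was counted at 21.3 and 23.9 CPM in RAG2_deficient against 13 to 20 CPM in 2KO and deltaEmu. The deleted part of Rag2 is not given, so this level does not check the label. The Y-linked gene Ddx3y lay at 0.233 CPM and 0 in RAG2_deficient and at 43 to 133 CPM in the other libraries, and Xist ranged from 644 to 2750 CPM in bone marrow but reached at most 0.196 CPM in spleen. The pools thus differ in the sex of the animals along with the groups.

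All 8 genes lie between bases 104244457 and 104507849 of chromosome 7 (mm10/GRCm38), and 7 of them are on the minus strand, Trim34a alone being on the plus strand. The promoters are shown because Trim5 and Trim12a, which had nearly no reads in deltaEmu, resemble Trim12c, which had many. RefSeq promoter windows (GRCm38.p6, 250 bases before to 50 after the start) were found for 8 of 8 genes. The interferon-stimulated response element was searched as GAAANNGAAA on both strands, and the capitals below mark its reverse complement, except in Trim30c, where they mark the letters that stand in the same place without being a match. Each run is 90 bases, 5′ to 3′ on the gene's strand.
Trim34a, chr7:104244397-104244486, plus strand: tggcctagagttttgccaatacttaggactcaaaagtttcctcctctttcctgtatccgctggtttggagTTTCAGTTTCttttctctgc
Trim5, chr7:104288136-104288225, minus strand: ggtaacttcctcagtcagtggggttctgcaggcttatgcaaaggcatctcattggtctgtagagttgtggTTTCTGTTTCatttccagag
Trim12a, chr7:104315466-104315555, minus strand: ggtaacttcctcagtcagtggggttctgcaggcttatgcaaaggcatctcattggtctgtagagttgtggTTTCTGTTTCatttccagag
Trim12c, chr7:104353359-104353448, minus strand: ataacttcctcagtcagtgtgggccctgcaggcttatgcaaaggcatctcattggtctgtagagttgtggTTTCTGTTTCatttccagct
Trim30a, chr7:104465210-104465299, minus strand: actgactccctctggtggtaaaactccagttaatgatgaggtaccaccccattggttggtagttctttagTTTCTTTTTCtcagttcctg
Trim30d, chr7:104507871-104507960, minus strand: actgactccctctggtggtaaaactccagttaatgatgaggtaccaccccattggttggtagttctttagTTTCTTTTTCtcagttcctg
Trim30c, chr7:104400896-104400985, minus strand: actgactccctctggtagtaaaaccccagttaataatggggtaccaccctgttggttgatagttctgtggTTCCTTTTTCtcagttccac

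The motif was present in the windows of 6 of the 8 genes, against 1131 of 32851 promoter windows of the same length in the genome (3.44%). It was not found in the windows of Trim30b and Trim30c, which lie 11238 and 10192 bases from the start of the gene as counted. The stretches of Trim5 and Trim12a are identical in 90 of 90 bases, and those of Trim30a and Trim30d in 90 of 90. Over the whole windows, Trim5 and Trim12a were identical in 241 of 241 aligned bases, and Trim12c matched Trim5 in 263 of 280 bases (93.9%) and Trim12a in 247 of 260 (95%). Trim30a and Trim30d matched in 276 of 295 bases (93.6%). The motif matches of Trim5, Trim12a and Trim12c are therefore not independent of one another, nor are those of Trim30a and Trim30d. The interferon-gamma activated site, searched as TTCNNNGAA, was present in the window of Trim30c alone among the 8 genes and in 8.3% of all windows. A match is a run of letters and shows no binding. Trim5 and Trim12a, whose windows are the most alike, both had few reads in deltaEmu. Trim12c had many there although its window is close to theirs, and Trim30a had many while Trim30d had few.

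Trim12a was the gene of the cluster with an on/off pattern. It encodes a short TRIM5 relative that lacks the C-terminal domain with which TRIM5 reads the capsid. Its level was 59.8 and 84.1 CPM in RAG2_deficient, 24.3 and 40.5 CPM in 2KO, 60 and 60.5 CPM in LPS_IL4, and 67.5 and 56.5 CPM in LPS_IL4_SAHA. In deltaEmu it had 1 count in pool 5 (0.0469 CPM) and 0 counts in pool 7. Both deltaEmu libraries were thus below the limit of 3 counts, and the other 8 libraries were all far above it. Summed over the group, the deltaEmu level was 2860-fold below RAG2_deficient (95% counting interval 513 to 113000) and 1280-fold below 2KO (230 to 50600). These intervals cover counting error only. Among the groups with reads, 2KO was the lowest and did not overlap the other 3.

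Trim5, the mouse gene that carries the name of the primate restriction factor, followed closely. It lay at 20.1 and 22.5 CPM in RAG2_deficient, at 6.08 and 9.62 CPM in 2KO, at 18.4 and 16.6 CPM in LPS_IL4, and at 24.1 and 18.9 CPM in LPS_IL4_SAHA. The deltaEmu libraries had 2 counts each, or 0.0937 and 0.112 CPM, and overlapped no other group. The ratio to RAG2_deficient was 210-fold lower (counting interval 81.6 to 772) and to 2KO 77.5-fold lower (30 to 286). With on taken as at least 1 CPM in both libraries of a group and off as under 0.1 CPM in both, 1 of the 8 genes was on in some groups and off in another, namely Trim12a. Trim5 stood just outside, since 0.112 CPM exceeds the limit by less than 1 count, and at limits of 5 and 0.5 CPM both genes met the pattern. Without deltaEmu pool 7 the count was likewise 2. Of 15194 genes that were on in at least 1 group, 1711 (11.3%) were off in another. Only 2 of these genes were off in deltaEmu and on in the other 4 groups, Trim12a and the pseudogene Hmgb1-ps8 on chromosome 10.

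Trim12c, the third close relative of TRIM5, was on throughout. It is reported to work with TRAF6 in interferon and NF-κB signalling. Its level was 86.8 and 88.1 CPM in RAG2_deficient, 57.6 and 67.7 CPM in 2KO, 71.9 and 84.1 CPM in deltaEmu, 82.2 and 70.4 CPM in LPS_IL4, and 88.4 and 62.8 CPM in LPS_IL4_SAHA. The highest library was 1.53-fold above the lowest, the narrowest range of the 8 genes. The deltaEmu minus RAG2_deficient difference was −0.17 ± 0.17 on the log2 scale (SE). Set per kilobase of counted exon, Trim12a stood at 27.3% to 61.7% of Trim12c in the 8 libraries outside deltaEmu, and at 0.0421% and 0% in deltaEmu. Trim5 stood at 10.7% to 30.5% of Trim12c in those 8 libraries and at 0.132% and 0.135% in deltaEmu. Of the 3 TRIM5-like genes, 2 were thus nearly without reads in deltaEmu, and the third lay within the range of the other groups. Of the distinct 50-base runs of Trim5, 36.6% also occur in another gene, 23.5% in Trim12c. For Trim12c the shares are 33.7% and 24.2% in Trim5, and 10.5% of the runs of Trim12a are shared. How reads matching several places were counted is not given, so the levels and ratios of these genes carry that uncertainty. In deltaEmu against RAG2_deficient, where 9.81% of all 16538 genes tested were called, the libraries did not overlap for 6 of the 8 genes and overlapped for Trim30a and Trim30b. Over all genes tested, the share that did not overlap was 52.8%.

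**Figure D1:**
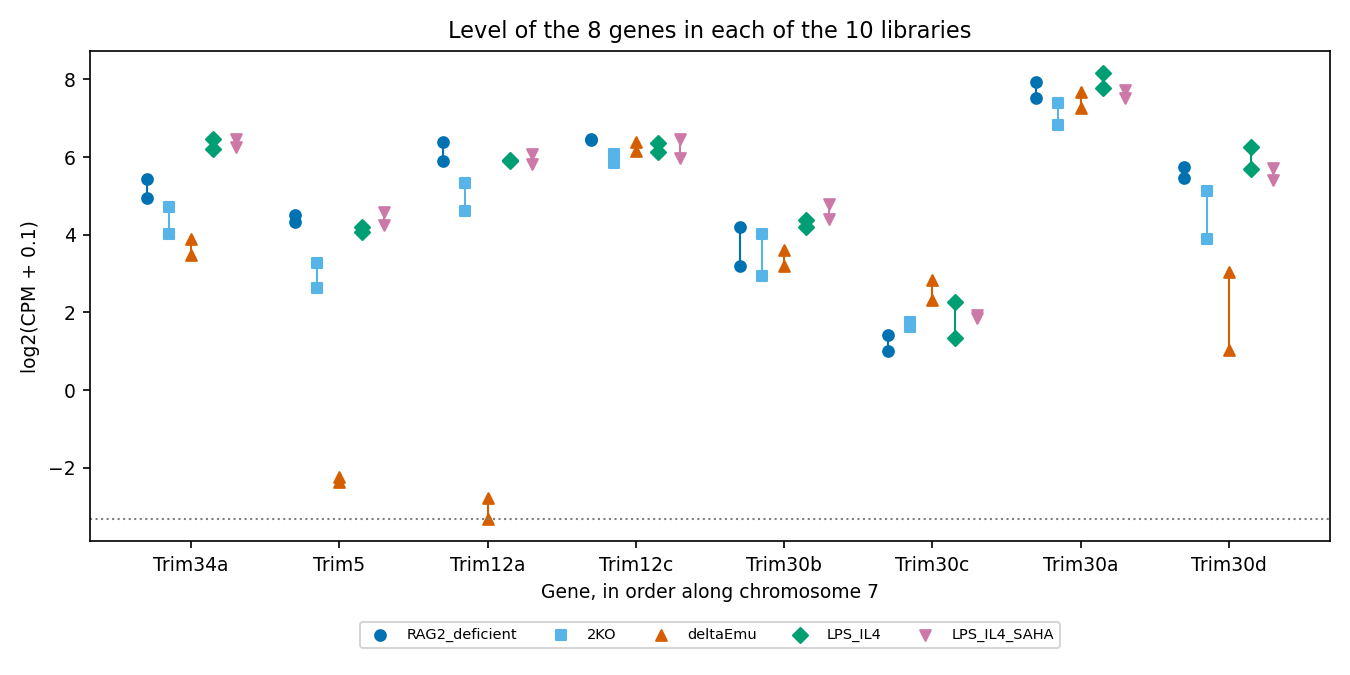
Level of each of the 8 genes in each library, on a log2(CPM + 0.1) scale, with 1 symbol per library, a line joining the 2 libraries of a group, and a dotted line at 0 CPM. Trim5 and Trim12a lie at the bottom in deltaEmu only, Trim30d is lowest there, and Trim12c stays within 57.6 to 88.4 CPM.

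Trim34a, an interferon-induced ubiquitin ligase at the start of the cluster, was graded. It had 30.9 and 43.2 CPM in RAG2_deficient, 16 and 26.3 CPM in 2KO, 14.8 and 11.1 CPM in deltaEmu, 73.7 and 88.2 CPM in LPS_IL4, and 88.7 and 76.5 CPM in LPS_IL4_SAHA. All 4 spleen libraries exceeded all 6 femoral ones, and the 3 femoral groups did not overlap one another. The deltaEmu minus RAG2_deficient difference was −1.52 ± 0.29 (log2, SE). Trim34a was counted over chr7:104244457-104340693, which spans Trim5 and Trim12a on the other strand and reaches into Trim12c, and the strand setting of the counting is not given in the sources used here. Of its distinct 50-base runs, 59.7% also occur in another gene, mostly Trim34b (39.8%), so its count is uncertain. Trim34b itself had 0.174 to 2.11 CPM.

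Trim30a encodes the best known protein of the Trim30 group, which restrains NF-κB signalling by bringing about the breakdown of TAB2 and TAB3, partners of the kinase TAK1. It lay at 183 and 245 CPM in RAG2_deficient, 113 and 169 CPM in 2KO, 203 and 154 CPM in deltaEmu, 220 and 287 CPM in LPS_IL4, and 211 and 184 CPM in LPS_IL4_SAHA. Per kilobase it was the highest of the 8 genes in every group, with group means from 31.8 ± 8.96 (SD, n = 2) in 2KO to 57.4 ± 10.8 CPM per kilobase in LPS_IL4, ahead of Trim12c at 16.8 ± 1.91 to 23.4 ± 0.252. The deltaEmu libraries overlapped those of RAG2_deficient, 2KO and LPS_IL4_SAHA, with a difference from RAG2_deficient of −0.27 ± 0.27 (log2, SE).

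Trim30d, known as a restriction factor of tick-borne flaviviruses, differed most within the Trim30 group. It had 43.7 and 53.8 CPM in RAG2_deficient, 14.7 and 35 CPM in 2KO, 8.15 and 1.96 CPM in deltaEmu, 52 and 76.2 CPM in LPS_IL4, and 52.2 and 42.2 CPM in LPS_IL4_SAHA. The deltaEmu libraries were the lowest 2 of the 10 and differed from each other by a larger factor than those of any other group. The difference from RAG2_deficient was −3.25 ± 0.62 and that of 2KO from deltaEmu was 2.27 ± 0.60 (log2, SE). The former was −4.63 without deltaEmu pool 5 and −2.57 without pool 7, and the latter 3.66 and 1.59, with 1.52 without 2KO pool 3. Per kilobase, Trim30d stood at 15.4% to 31.2% of Trim30a in 8 libraries and at 4.73% and 1.5% in deltaEmu pools 5 and 7. Of its 50-base runs, 6.39% are shared with Trim30a. The predicted gene Gm16464, which lies inside Trim30d on the same strand, had 2.56 and 3.59 CPM in RAG2_deficient, 0.468 and 1.09 CPM in 2KO, and 0.0937 and 0.0561 CPM in deltaEmu.

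Trim30b and Trim30c are less well described members of the Trim30 group, and both were on in all 5 groups. Trim30b lay at 9.13 and 18.3 CPM in RAG2_deficient, 7.63 and 16.2 CPM in 2KO, 12.2 and 9.15 CPM in deltaEmu, 18.4 and 20.8 CPM in LPS_IL4, and 27.6 and 21.2 CPM in LPS_IL4_SAHA. The 3 femoral groups overlapped, with the lowest mean in deltaEmu (10.7 ± 2.15 CPM, SD, n = 2), and the 4 spleen libraries were above the femoral ones, by as little as 18.4 against 18.3 CPM. Trim30c lay at 1.92 and 2.57 CPM in RAG2_deficient, 2.99 and 3.27 CPM in 2KO, 7.03 and 4.94 CPM in deltaEmu, 2.43 and 4.75 CPM in LPS_IL4, and 3.72 and 3.53 CPM in LPS_IL4_SAHA. It was the only one of the 8 genes whose highest 2 libraries were those of deltaEmu, with a difference from RAG2_deficient of 1.41 ± 0.32 (log2, SE) and of 2KO from deltaEmu of −0.94 ± 0.31.

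In 2KO, 7 of the 8 genes had a lower fitted level than in RAG2_deficient, with a median of −0.72 on the log2 scale against 0 for all genes tested. The differences were −1.45 ± 0.26 for Trim5, −1.16 ± 0.28 for Trim12a, −0.98 ± 0.56 for Trim30d, −0.82 ± 0.29 for Trim34a, −0.62 ± 0.27 for Trim30a, −0.49 ± 0.17 for Trim12c and −0.21 ± 0.42 for Trim30b, with Trim30c at 0.46 ± 0.32 (SE). Libraries of the 2 groups did not overlap for Trim34a, Trim5, Trim12a, Trim12c, Trim30a, Trim30c and Trim30d, and overlapped for Trim30b. Over all genes tested, the libraries of these groups did not overlap for 46.7%, and 4.31% were called. With a library left out the difference of Trim30d ranged from −1.73 to −0.48, and that of Trim30b from −0.85 to 0.37, where it turned its direction. Summed over the 8 genes, the level was 436 and 557 CPM in RAG2_deficient, 242 and 367 CPM in 2KO, 317 and 265 CPM in deltaEmu, 527 and 625 CPM in LPS_IL4, and 563 and 466 CPM in LPS_IL4_SAHA. The 3 femoral comparisons share their groups and are given side by side only.

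**Figure D2:**
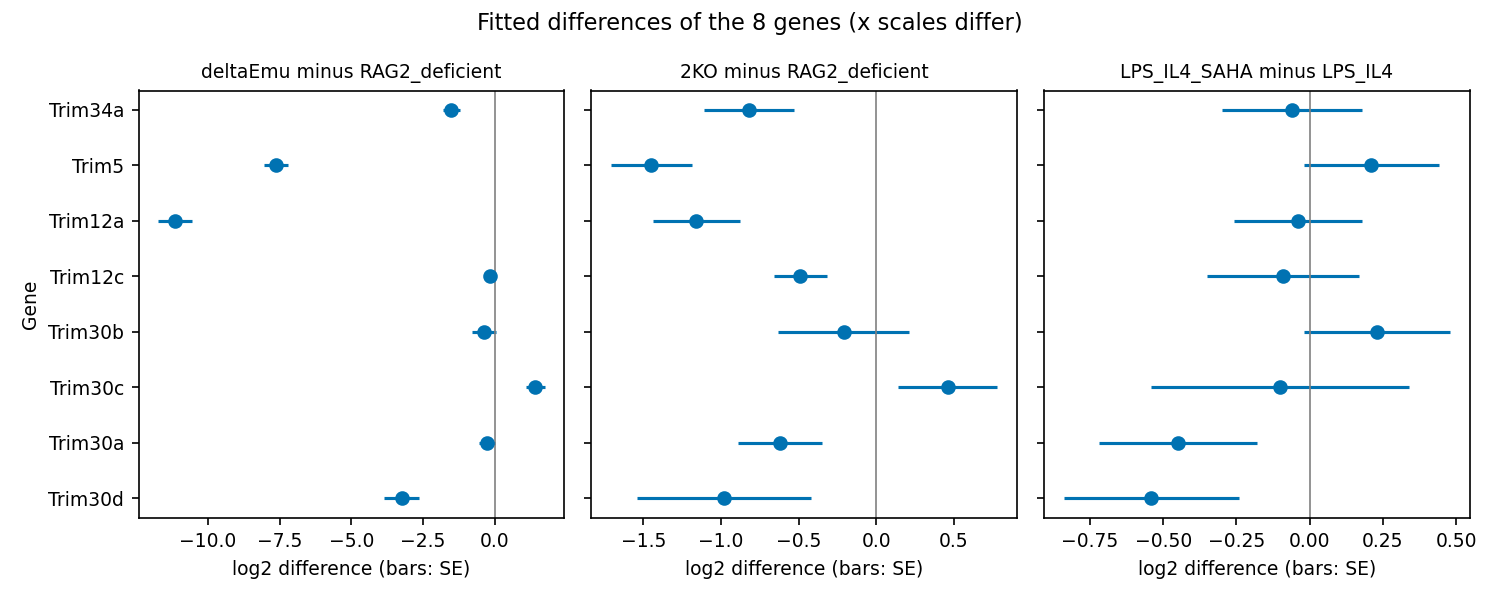
Fitted log2 differences of the 8 genes with their standard errors, in deltaEmu minus RAG2_deficient, 2KO minus RAG2_deficient and LPS_IL4_SAHA minus LPS_IL4, on x axes of different scale. The deltaEmu values of Trim5 and Trim12a rest on 4 counts and 1 count and depend on the prior count of the fit, while every SAHA difference lies between −0.54 and 0.23.

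The femoral libraries also differed in marker genes of other cells. Over 10 neutrophil markers the summed level was 6610 to 7820 CPM in RAG2_deficient, 8820 to 10600 CPM in 2KO and 17100 to 20200 CPM in deltaEmu, and under 0.52 CPM in every spleen library. Over 10 monocyte and macrophage markers it was 2820 to 4110, 3880 to 4350 and 6300 to 6880 CPM in the same order of femoral groups. Over 10 erythroid markers it was 3520 to 6120, 11000 to 16200 and 2740 to 2930 CPM. These sums show that the femoral libraries held RNA of other blood cells in amounts that moved with the groups. Pro-B markers (10 genes) stood at 2700 to 3100, 657 to 1060 and 732 to 1130 CPM, and 8 stromal markers at 6620 to 7340, 1110 to 1570 and 2070 to 2210 CPM. In the spleen the pro-B list summed to 691 to 1050 CPM in LPS_IL4 and 732 to 747 CPM in LPS_IL4_SAHA. Rag1, on that list, reached at most 0.0433 CPM there, so the sum does not measure pro-B cells alone. Mature B cell markers (10 genes) summed to 329 to 340 CPM in RAG2_deficient, 380 to 480 CPM in 2KO and 748 to 793 CPM in deltaEmu, with 4690 to 6770 CPM in the spleen. Plasmacytoid dendritic cell markers (10 genes) were at 829 to 996 CPM, NK cell markers (9 genes) at 74.2 to 148 CPM and T cell markers (8 genes) at 26.7 to 34.5 CPM in the 3 femoral groups, and no list but that of T cells had a gene at 0 in both libraries of a femoral group. The plasmacytoid list also summed to 577 to 582 CPM in LPS_IL4 and 573 to 591 CPM in LPS_IL4_SAHA, so it does not measure those cells alone. The part of other cells in the levels of the 8 genes was not tested. In such bulk samples fewer cells of a type and less RNA per cell cannot be told apart. The genetic background of the groups was taken from the labels and was not checked. Ifi202b, not one of the 8 genes, also set deltaEmu apart. It had 85.4 and 65.7 CPM there and at most 0.0485 CPM in every other library. Whether the groups differ in background or in how their reads map was not tested. The near absence of Trim5 and Trim12a was seen in deltaEmu, which also had the highest neutrophil and monocyte and macrophage sums. Its cause was not tested.

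SAHA changed none of the 8 genes past the threshold. In edgeR's quasi-likelihood test 0 of 8 were called at an adjusted p of 0.05, 0 had an unadjusted p under 0.05, and DESeq2 called 0. Over all 13913 genes tested in the spleen the share called was 0%, with 187 genes at an unadjusted p under 0.05. The largest differences were −0.54 ± 0.30 (SE) for Trim30d and −0.45 ± 0.27 for Trim30a on the log2 scale, each with an adjusted p of 0.939 in edgeR's test. Trim5 and Trim30b had 0.21 ± 0.23 and 0.23 ± 0.25, and Trim12a had −0.04 ± 0.22. Without LPS_IL4 pool 4_et_7, 1 of 8 genes was called, Trim30d at −0.80 with an adjusted p of 0.0244, alongside 2670 genes in the whole table. Without LPS_IL4 pool 6_et_8, the differences were −0.15 for Trim30d and −0.17 for Trim30a. That library held the highest levels of both genes, 76.2 and 287 CPM, and stood apart from the other 3 spleen libraries, with a correlation of log2 CPM across genes of 0.934 to 0.9605 with them against 0.9846 to 0.9931 among them. Either omission leaves LPS_IL4 with 1 library, which is assumed to vary like the SAHA libraries. Over all 9 alternatives the adjusted p of Trim30d ranged from 0.0244 to 1. The spleen libraries overlapped between the 2 groups for every gene of the cluster except Trim5 and Trim30b, whose SAHA libraries were both higher, and Trim30a, whose SAHA libraries were both lower, and 24.6% of all genes tested did not overlap.

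Genes around the cluster were examined within 2 Mb of its ends, where the table lists 228 genes besides the 8. Of these, 35 were on in at least 1 group, 20 were on in all 5, and none was off in deltaEmu while on in the other 4. Gm15133, Gm16464 and Gm18853, 3 of the 35, were off in deltaEmu and in no other group, but lay under 1 CPM in some of the other libraries. In deltaEmu against RAG2_deficient, edgeR's quasi-likelihood test called 10 of 37 neighbours (27%), 2 higher and 8 lower, beside the 9.81% of all genes. Without deltaEmu pool 5 or without pool 7, 3 were called. The largest fitted falls were those of Gm15133, Gm18853, Gvin1 and Gm16464. Of these, Gm15133 overlaps Trim12a, Gm16464 lies inside Trim30d, and the midpoint of Gm18853 lies inside Gvin1. The share of neighbours called thus includes features that are not independent of the 8 selected genes or of each other. Gm15133, a predicted gene on the plus strand that overlaps Trim12a, had 0 counts in both deltaEmu libraries and 2.15 and 2.43 CPM in RAG2_deficient, at least 14.8-fold more at 3 counts per deltaEmu library, with an adjusted p of 0.00428 in edgeR's test. Gvin1, a very large interferon-inducible GTPase near the far edge of the window, fell from 15 and 22.8 CPM in RAG2_deficient to 0.187 and 0.112 CPM (6 counts in all), 126-fold (counting interval 57.5 to 344, adjusted p = 0.000551 in edgeR's test). Gm15133, Gvin1 and 9130208D14Rik were the 3 neighbours called under each of the 9 alternatives tried, the single-library omissions among them. The noncoding 9130208D14Rik rose from 0.523 and 0.728 CPM to 24.4 and 16.4 CPM, a log2 change of 5.00 ± 0.34 (adjusted p = 0.000266 in edgeR's test), and Gm5900 was the other gene that rose.

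Trim6, the next gene before Trim34a and itself a ubiquitin ligase of the family, was at 5.52 and 5.78 CPM in RAG2_deficient, 2.39 and 1.96 CPM in 2KO, and 1.17 and 1.07 CPM in deltaEmu. It fell in deltaEmu against RAG2_deficient by 2.33 ± 0.31 on the log2 scale (SE, adjusted p = 0.00466 in edgeR's test), and the call was lost without deltaEmu pool 5 or pool 7, where the adjusted p reached 0.0698. In 2KO against RAG2_deficient, 4 of 37 neighbours were called (10.8%), beside 4.31% of all genes. These were 9130208D14Rik (log2 change 3.46 ± 0.34), higher in 2KO, and Trim6, Apbb1 and Gm4759, lower. The count was 11 without RAG2_deficient pool 2, 1 without 2KO pool 3, and 2 without 2KO pool 1, deltaEmu pool 5 or deltaEmu pool 7. In 2KO against deltaEmu, 6 of 37 were called (16.2%), beside 3.7% of all genes. Gm15133, Gvin1, Gm18853 and the adult beta globin genes Hbb-bt and Hbb-bs were higher in 2KO, and 9130208D14Rik was lower. The overlaps of Gm15133 with Trim12a and of Gm18853 with Gvin1 apply to these 6 as well. The number called was 1 without either deltaEmu pool and 2 without 2KO pool 3. The globin genes are also on the erythroid marker list, whose sum was highest in 2KO.

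**Figure D3:**
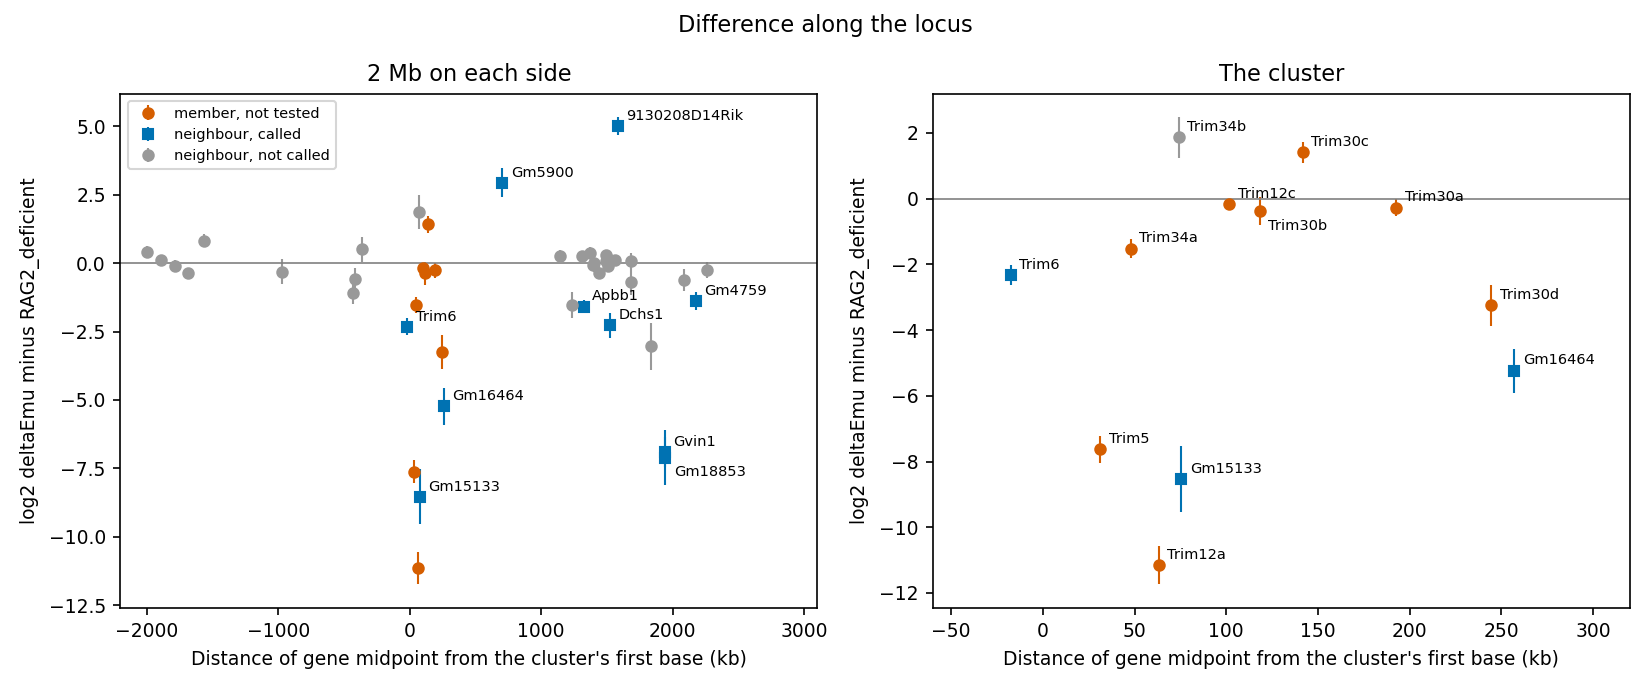
Fitted log2 difference of deltaEmu minus RAG2_deficient with its standard error for genes of the region, against the distance of the gene's midpoint from the first base of the cluster in kb, over 2 Mb on each side (left) and in the cluster (right). Trim5, Trim12a and Gm15133 lie lowest near the start of the cluster, Trim12c, Trim30b and Trim30a lie near 0, and Trim30d and Gm16464 are low at its end; the values of Trim12a, Gm15133 and Gm18853 rest on 0 or 1 count in deltaEmu and depend on the prior count.

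The other Trim genes, a list of 30 that includes Mid1, Mid2 and Pml, held none that was off in deltaEmu and on in the other 4 groups, as Trim12a was. Trim3, Trim6, Trim21 and Trim68 stand on this list and also among the neighbours within 2 Mb, so a call of Trim6 counts in both. In deltaEmu against RAG2_deficient, 4 of 29 fell in edgeR's test (13.8%) and none rose, beside 9.81% of all genes called in either direction. The 4 were Mid1 (−3.36 ± 0.67), Trim6 (−2.33 ± 0.31), Mid2 (−1.88 ± 0.47) and Trim24 (−0.79 ± 0.19), of which Trim24 encodes a transcriptional coregulator. Mid1 varied widely within RAG2_deficient, at 6.06 ± 4.95 CPM (SD, n = 2), against 0.59 ± 0.0389 CPM in deltaEmu. With a library left out its difference ranged from −4 to −2.12. The count was 0 without deltaEmu pool 5 or pool 7, 2 without either 2KO pool or RAG2_deficient pool 3, and 11 without RAG2_deficient pool 2. In 2KO against RAG2_deficient, 3 of 29 fell (10.3%), beside 4.31% of all genes called in either direction. These were Mid1 (−2.88 ± 0.63), Mid2 (−2.24 ± 0.48) and Trim6 (−1.39 ± 0.29). The number called was 5 without RAG2_deficient pool 2 and 0 without any 1 of the other 5 femoral libraries. Calls in both comparisons are against RAG2_deficient, which had nearly no Ddx3y reads, so sex and group cannot be told apart in them. In 2KO against deltaEmu 0 of 29 were called by edgeR, beside 3.7% of all genes, and 0 by DESeq2. Of the 29, 4 had an unadjusted p under 0.05 in edgeR's test. The count was 1 without RAG2_deficient pool 2 or pool 3. With SAHA 0 of 27 were called by edgeR and 0 by DESeq2, 0 had an unadjusted p under 0.05, and 5 were called without LPS_IL4 pool 4_et_7.

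Interferon response genes were followed because the cluster belongs to this programme, in a list of 40 that includes Ifit1, Isg15, Oas1a, Mx1 and Irf7. In deltaEmu against RAG2_deficient edgeR called 0 of 40, beside 9.81% of all genes, DESeq2 called 0, and 1 had an unadjusted p under 0.05. The list median was 0.13 (log2) against −0.01 for all genes, with 26 of 40 positive. Any part of interferon signalling in the levels of the cluster was not tested. The count was 5 without RAG2_deficient pool 2 and 1 without pool 3. Ifit3, an interferon-induced RNA-binding protein, had 16.1 and 13 CPM in RAG2_deficient and 40.2 and 7.86 CPM in deltaEmu. In 2KO against deltaEmu edgeR called 0 of 40, beside 3.7% of all genes, and DESeq2 called 2. Of the 40, 8 had an unadjusted p under 0.05 in edgeR's test, with a list median of −0.42 and 5 positive. The count was 1 without either 2KO pool and 2 without either RAG2_deficient pool. In 2KO against RAG2_deficient edgeR called 0, beside 4.31% of all genes, and DESeq2 called 1. Of the 40, 4 had an unadjusted p under 0.05 in edgeR's test, with a list median of −0.19. The count was 1 without RAG2_deficient pool 3. With SAHA edgeR called 0 of 40, DESeq2 called 0, and 1 had an unadjusted p under 0.05, with a median of −0.25, and 13 were called without LPS_IL4 pool 4_et_7.

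TAK1 pathway partners, 15 genes of the signalling step that TRIM30A is known to restrain, held 1 call over the 4 comparisons together. In deltaEmu against RAG2_deficient 1 of 15 was called (6.67%), beside 9.81% of all genes. Nfkbia, which encodes the NF-κB inhibitor IκBα, rose by 1.24 ± 0.28 on the log2 scale (SE, adjusted p = 0.0306 in edgeR's test). Its level was 183 ± 25.6 CPM in deltaEmu and 77.4 ± 28.2 CPM in RAG2_deficient (SD, n = 2). The call was lost without deltaEmu pool 5 or pool 7, and without RAG2_deficient pool 2 the count was 4. Beside 3.7% and 4.31% of all genes, edgeR called 0 of 15 in 2KO against deltaEmu and in 2KO against RAG2_deficient. In each, DESeq2 called 1, and 1 had an unadjusted p under 0.05 in edgeR's test. The count was 1 without RAG2_deficient pool 2 in both comparisons and also without pool 3 in the former. With SAHA edgeR and DESeq2 called 0, 0 had an unadjusted p under 0.05, and 4 were called without LPS_IL4 pool 4_et_7.

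Over the 10 libraries, the genes most like Trim12a were sought among 14050 genes by the correlation of log2(CPM + 0.1), which is a description and has no test. The closest was Rbm44, an RNA-binding protein gene on chromosome 1 (r = 0.996, Spearman's rho 0.939), with 4.89 and 7.33 CPM in RAG2_deficient, 3.28 and 3.88 CPM in 2KO, 0.141 and 0.168 CPM in deltaEmu, and 4.96 to 6.2 CPM in the spleen. Next came Gm1966 (r = 0.987, rho 0.794) and Gvin1 (r = 0.985, rho 0.903), both on chromosome 7, and the short Gm25939 on chromosome 1 (r = 0.982, rho 0.794). Gm1966, at chr7:106596743-106604035 and thus beyond the 2 Mb window, had 349 and 505 CPM in RAG2_deficient, 184 and 256 CPM in 2KO, 4.22 and 2.24 CPM in deltaEmu, and 159 to 299 CPM in the spleen. All 4 genes were far lower in both deltaEmu libraries than in the other 8, and the correlations rest largely on those 2 libraries. For Trim5 the closest 4 were Rbm44 (0.991), Unc5cl (0.983), Gm15133 (0.982) and Gm25939 (0.977), a search added after its values were seen.

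**Figure D4:**
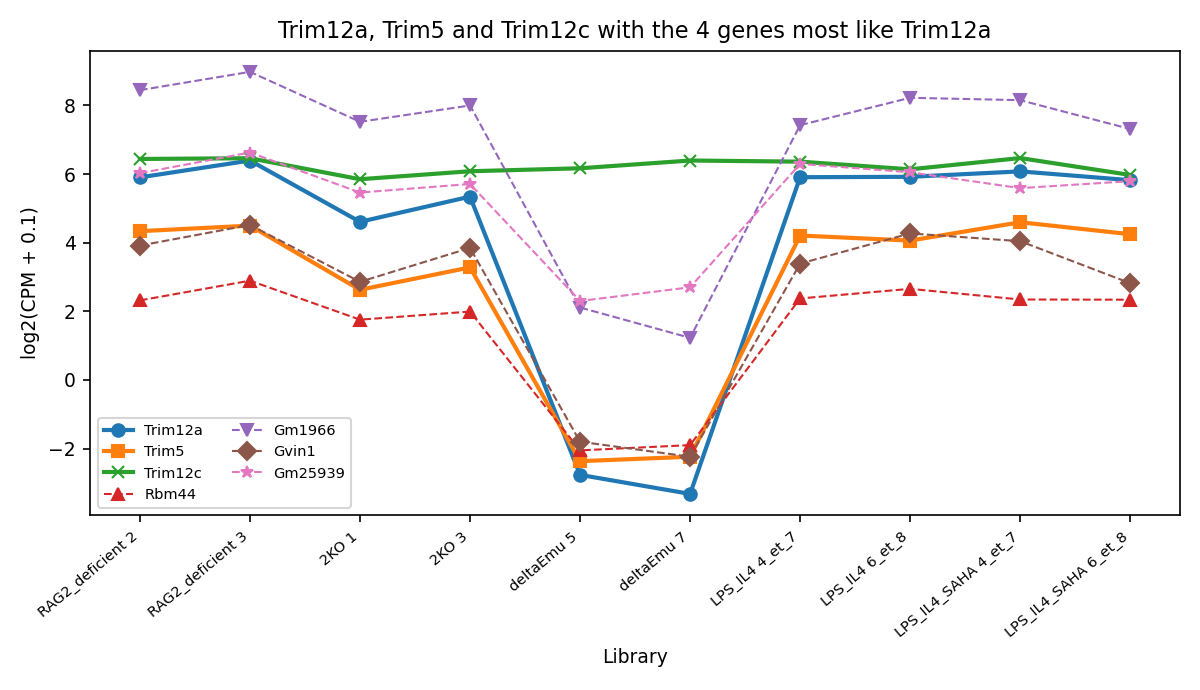
Level on a log2(CPM + 0.1) scale of Trim12a, Trim5, Trim12c and the 4 genes most like Trim12a in the 10 libraries, ordered by group, the lines only joining the points of a gene. The 4 genes dip with Trim12a and Trim5 in deltaEmu pools 5 and 7, and Trim12c does not.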

How the data were processed

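The deposited data are 1 table of raw counts, made by the authors. It has 46959 genes and 100 control sequences, the latter left out of library sizes. Libraries were stranded total RNA, per the labels. The submitters' processing notes name STAR 2.4.0a, featureCounts, Subread 1.4.6-p1 and the build mm10/GRCm38. Which annotation release was used, how strand was set and how reads matching several places were handled is not given in the sources used here. Groups and columns follow the index that ends each description.

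CPM were computed with TMM scaling over all 10 libraries. Tests were edgeR 4.0.16 quasi-likelihood fits (limma 3.58.1, R 4.3.3), after filterByExpr with a minimum count of 10, in 1 fit of the 4 spleen libraries and 1 of the 6 femoral libraries. Adjusted p-values are Benjamini-Hochberg values over all genes tested, and a call is an adjusted p under 0.05. The code was tested on simulated data. Alternatives were DESeq2 1.42.0, no filter, removal of 813 immunoglobulin, mitochondrial and ribosomal RNA genes, a replicate block, a 1 Mb window, other on and off limits, and leaving out each library. Ratios on few counts carry exact binomial intervals, and bounds take 3 counts per library.

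The 8 genes and the lists were chosen with earlier results of these data known. The text names all 8, the 4 genes of each list called in each direction with the largest change, and the 4 genes most like a gene with the on/off pattern among genes of at least 1 CPM on average. Ifit3, Ifi202b, Gm16464 in 2KO, Trim34b, the genes most like Trim5 and the remaining called genes were added after their values were seen. Over 10960 genes, the spleen libraries with the same pool number deviated from their group means with a correlation of −0.516. With 2 libraries per group, 1 library that stands apart can set this sign, so it does not show whether the numbers pair them. The main fit left the pool numbers out. Shared 50-base runs were counted in GENCODE transcripts. Promoters are from RefSeq (GRCm38.p6).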

Additional observations from a re-analysis of the deposited data

Results flagged for a closer look

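The table holds 100 entries for control sequences, which no comparison uses. Their summed counts exceeded the limit of 3 counts that a count of 0 allows in 4 libraries, with 4 in 2KO pool 1, 7 in RAG2_deficient pool 2, 5 in LPS_IL4 pool 4_et_7 and 17 in LPS_IL4_SAHA pool 6_et_8. The other 6 libraries had 0 to 3. No group had 4 or more libraries, so no library was checked as an outlier within its group.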

How the results depend on the processing

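For the 8 genes, 0 SAHA calls were made under DESeq2, no filter, the removal of abundant genes, the replicate block (0) and the block with crossed pool numbers (0), an alternative chosen after seeing the data. With a library left out, the count ranged from 0 to 1. The log2 difference of Trim12a between 2KO and deltaEmu ranged from 9.24 to 12.34 with a library left out, and that between deltaEmu and RAG2_deficient from −13.49 to −10.4, since 0 or 1 count is left.

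With SAHA, leaving out a library gave 0 to 5 calls among other Trim genes, 0 to 13 among interferon genes, 0 to 4 among TAK1 partners and 0 to 2 among neighbours, and no filter gave 1 interferon gene. In 2KO against deltaEmu the ranges were 0 to 1, 0 to 2, 0 to 1 and 1 to 7 in the same order. No filter gave 1 Trim gene, 12 interferon genes and 1 TAK1 partner, DESeq2 gave 2 interferon genes and 1 TAK1 partner, and a 1 Mb window held 3 called neighbours. In 2KO against RAG2_deficient they were 0 to 5, 0 to 1, 0 to 1 and 1 to 11. No filter gave 6 interferon genes, 1 TAK1 partner and 12 neighbours, DESeq2 gave 1, 1 and 8, and the 1 Mb window held 1. In deltaEmu against RAG2_deficient they were 0 to 11, 0 to 5, 0 to 4 and 3 to 15. No filter gave 7 interferon genes and 2 TAK1 partners, and the 1 Mb window held 4. The cause of these shifts was not tested. The on/off pattern held for 1 to 2 of the 8 genes with a library left out, and for 2 at limits of 5 and 0.5 CPM.

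With 2 pools per group, calls of single genes often rest on 1 library. Levels under 3 counts were not detectable at this depth.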
